A study of Mus musculus with 6 samples.

Results

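Genes of oxysterol synthesis and of the response to oxysterols were compared between 2 populations of liver macrophages by RNA-seq. Oxysterols are oxidized forms of cholesterol. Cholesterol hydroxylases add a hydroxyl group to cholesterol, and some of the products bind the liver X receptors (LXRs), nuclear receptors that pair with retinoid X receptors (RXRs) and switch on genes of cholesterol export, lipoprotein handling and phospholipid remodelling. 25-Hydroxycholesterol also holds back SREBP2, the transcription factor of cholesterol synthesis, and its 7α-hydroxylated product attracts immune cells through the receptor GPR183. In macrophages, which take up large amounts of cholesterol from dead cells and lipoproteins, these pathways balance sterol uptake, synthesis and export.

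The 9 genes were named by symbol and in part selected on results of this same comparison, with the log2 difference of Ch25h known, so the differences of these genes between the groups are given as a description with no test. They comprise the oxysterol enzyme genes Ch25h, Cyp27a1, Cyp7b1 and Hsd3b7, the LXRβ gene Nr1h2, and the LXR target genes Mylip, Lpcat3, Pltp and Apoe. The deposited table held 8 of the 9 among its 16503 genes. Hsd3b7, which encodes a sterol dehydrogenase that acts after CYP7B1, was not analysed here.

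All mice were wild type C57BL/6J males fed CDA-HFD, a high-fat diet that lacks choline and is used to bring about metabolic dysfunction-associated steatohepatitis (MASH), so no group on normal diet entered the comparison. CD11chiMinclehi macrophages (n = 3 libraries) and CD11cloMinclelo macrophages (n = 3 libraries) were sorted from liver as Tim4-negative CD11b+Ly6CloF4/80+ cells that lacked lineage markers of B, T and NK cells, eosinophils and neutrophils, and were divided by the surface proteins CD11c and Mincle. Each library is called a biological replicate in its title and was numbered 1 to 3. The sources used here do not say from how many mice each library came. Levels are in TPM (transcripts scaled to gene length and to the library total), a scale meant for comparison between genes. The authors removed duplicate reads, which can flatten the levels of abundant genes, so ranks and ratios between genes describe the deposited levels only. Differences are CD11chiMinclehi minus CD11cloMinclelo on the log2(TPM + 1) scale ± standard error (SE), a scale that understates changes of genes near 0 TPM. A gene was called when its adjusted p, from limma over all 16503 genes with Benjamini-Hochberg adjustment, was under 0.05.

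Libraries held 7.01 to 8.14 M estimated reads (M for mega). The 8 macrophage markers, among them Adgre1, Csf1r and Lyz2, summed to 4620 to 4747 TPM in CD11chiMinclehi and 4517 to 5085 TPM in CD11cloMinclelo libraries. None of them was called by limma. With the replicate number as a block 2 were called lower, Adgre1 and Fcgr1, against 1.75% of all genes. Libraries of both groups also carried RNA of other cells. The hepatocyte gene Alb was at 320 to 602 TPM, and the libraries numbered 1 held less of dendritic cell, neutrophil and T and NK cell markers than those numbered 2 and 3.

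Ch25h was by far the most different of the 8 measured members, lower in every CD11chiMinclehi library, and the other 7 differed little or were near 0 TPM. Over all 16503 genes 1.22% were called, 0.77% as higher and 0.454% as lower, and with the replicate number as a block 3.42%, 1.67% as higher and 1.75% as lower. Ch25h was the 1 member among the called genes of either model. Its difference was known when the members were selected, so that this call restates the selection and is not a test of it. The groups did not overlap for 3 members, lower for Ch25h and Cyp27a1 and higher for Lpcat3, against 18.5% of all genes in either direction (9.25% higher and 9.22% lower), and nothing is read from these shares for the members. The median log2 difference was -0.06 over the 8 members and -0.01 over all genes.

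**Figure D1:**
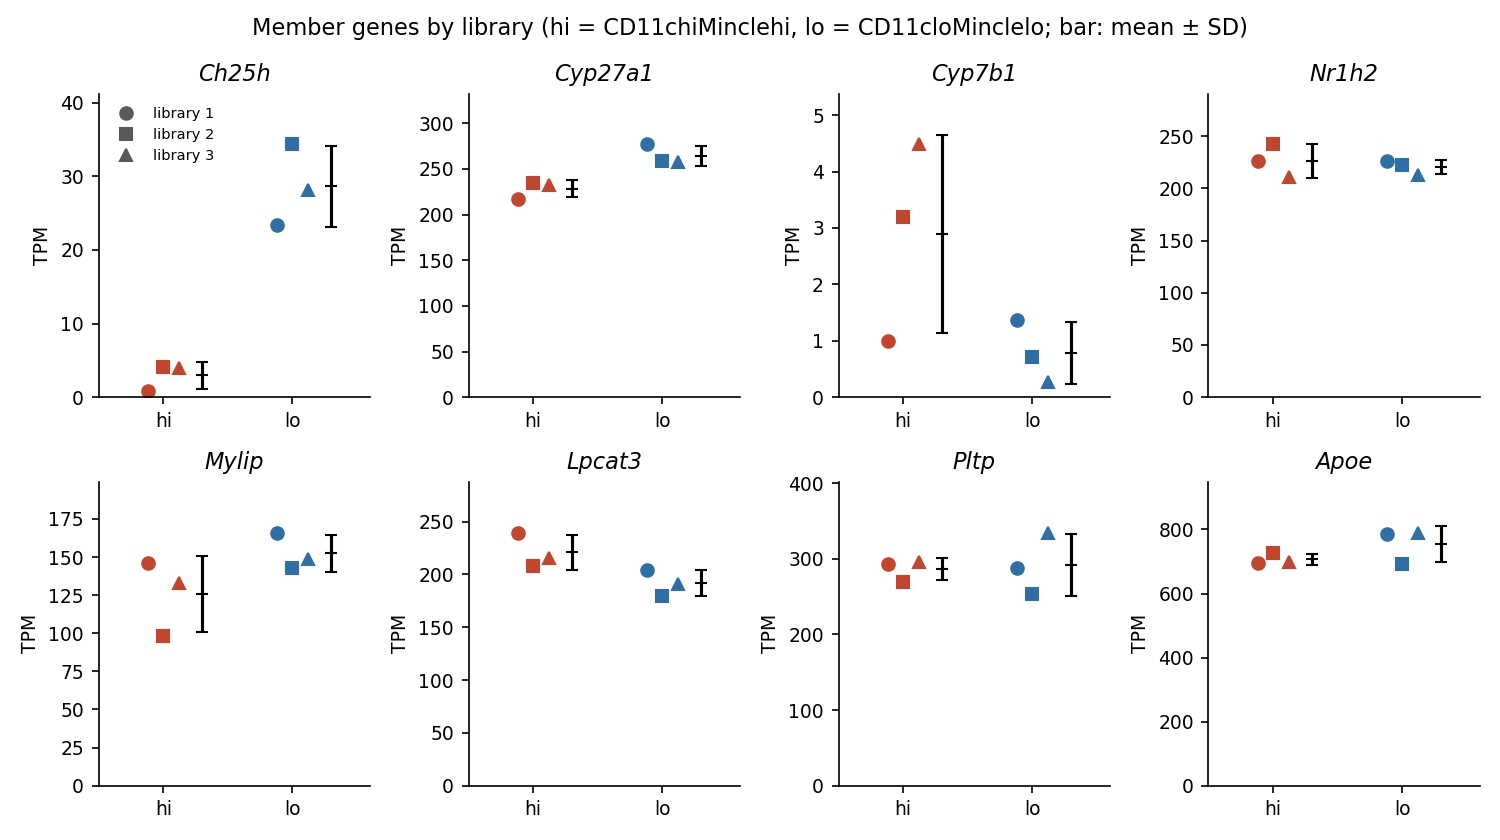
TPM of the 8 measured genes in each CD11chiMinclehi (hi, red) and CD11cloMinclelo (lo, blue) library, with the symbol shape giving the library number and black bars the mean ± SD (n = 3). Ch25h was 0.783 to 4.16 TPM against 23.4 to 34.4 TPM, while Apoe, Pltp, Nr1h2 and Mylip overlapped between the groups.

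Ch25h encodes cholesterol 25-hydroxylase, the enzyme that makes 25-hydroxycholesterol, and is known as an interferon-stimulated gene of macrophages. It is a gene without introns on chromosome 19 (GRCm38, 34473778 to 34475164, minus strand). The promoter sequence of Ch25h is shown because this was the member with the widest separation, and that of Cyp27a1 because the other cholesterol hydroxylase gene differed little. Both are the 250 bases before the RefSeq start (GRCm38.p6), written 5′ to 3′ on the strand of the gene, at chr19:34475149-34475398 (minus) and chr1:74713285-74713534 (plus). Capitals mark a TATA box (TATAAA) and a cAMP response element (TGACGTCA) in Ch25h, and CCAAT boxes (CCAAT) and a GC box (GGGCGG) on either strand in Cyp27a1.
Ch25h: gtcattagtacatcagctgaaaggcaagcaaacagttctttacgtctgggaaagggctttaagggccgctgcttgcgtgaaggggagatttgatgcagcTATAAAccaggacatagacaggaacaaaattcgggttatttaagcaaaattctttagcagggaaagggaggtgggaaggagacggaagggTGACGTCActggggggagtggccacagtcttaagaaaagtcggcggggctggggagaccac
Cyp27a1: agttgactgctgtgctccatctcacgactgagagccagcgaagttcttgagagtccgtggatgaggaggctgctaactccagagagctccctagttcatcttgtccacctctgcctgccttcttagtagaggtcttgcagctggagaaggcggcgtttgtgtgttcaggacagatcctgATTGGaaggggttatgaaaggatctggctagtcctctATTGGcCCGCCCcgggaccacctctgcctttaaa
The cAMP response element of Ch25h began 61 bases before the start, and its TATAAA 151 bases before it. On either strand, TGACGTCA was in 1.55% and TATAAA in 12.4% of the 32851 RefSeq promoter windows of this length, CCAAT in 33.8% and GGGCGG in 32.7%. In Cyp27a1 the CCAAT boxes began 71 and 34 bases and the GC box 28 bases before the start.

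Neither window held the LXR half-site AGGTCA (14.0% of all windows), its direct repeat with a spacing of 4 bases (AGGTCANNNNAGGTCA, 0.0152%) or the interferon response core GAAANNGAAA (2.98%). The same held for the windows of Nr1h2, Mylip, Lpcat3, Pltp and Apoe, which had 3 windows. RefSeq windows were matched for all measured members but Cyp7b1. These letter matches describe the windows and are no evidence on binding, and enhancers and introns were not searched.

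Ch25h was at 0.783, 4.16 and 3.89 TPM in CD11chiMinclehi libraries 1, 2 and 3 and at 23.4, 34.4 and 28.2 TPM in CD11cloMinclelo libraries 1, 2 and 3. Every CD11chiMinclehi library lay below every CD11cloMinclelo library, and library 1 was the lowest of each group. The means ± SD were 2.94 ± 1.88 and 28.6 ± 5.50 TPM (n = 3 each), a log2 difference of -3.04 ± 0.45, or a 9.73-fold lower mean. By its mean level over all 6 libraries Ch25h ranked 9254 of 16503 genes. In CD11cloMinclelo libraries its mean of 28.6 TPM was still low beside the 265 TPM of the other hydroxylase gene, Cyp27a1.

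The depth behind these values was small. They correspond to about 2, 10 and 10 reads in CD11chiMinclehi libraries and 55, 93 and 66 reads in CD11cloMinclelo libraries, in all 22 against 214. Counting error alone gives an exact 95% interval of 6.26 to 15.8 for the ratio of CD11cloMinclelo to CD11chiMinclehi. By library number the ratio was 29.9 (7.89 to 253) for number 1, 8.26 (4.30 to 17.8) for number 2 and 7.24 (3.70 to 15.8) for number 3. The wide interval of number 1 rests on the 2 reads of its CD11chiMinclehi library.

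**Figure D2:**
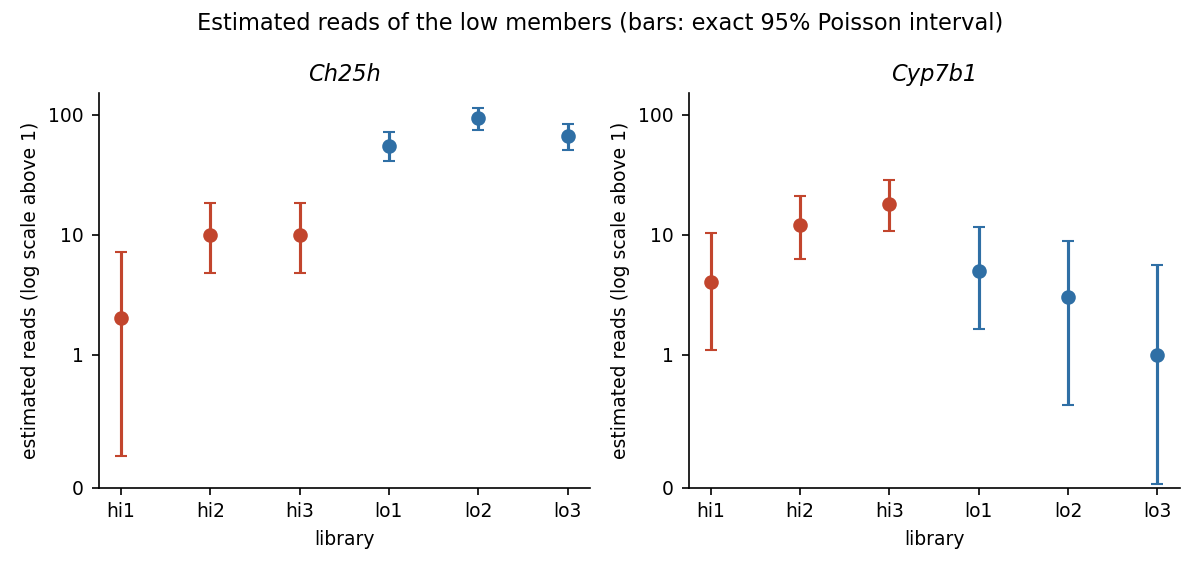
Estimated reads of Ch25h and Cyp7b1 per library (log scale above 1), CD11chiMinclehi in red and CD11cloMinclelo in blue, with exact 95% Poisson intervals that cover counting error only. For Ch25h no interval of a CD11chiMinclehi library (highest bound 18.4 reads) reached one of a CD11cloMinclelo library (lowest bound 41.4 reads), whereas for Cyp7b1 the 4 reads of CD11chiMinclehi library 1 lay within the 1 to 5 reads of CD11cloMinclelo libraries.

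The log2 difference of Ch25h lay between -3.31 and -2.54 when any 1 of the 6 libraries was left out. Ch25h was not among the called genes in any of these 6 fits, nor without the mean-variance trend. It shares 159 of its 1387 exon bases with Gm26902, a transcript on the opposite strand, and the strand setting of the counting is not given in the sources used here.

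Ch25h was lowest in the library of each group that was lowest in markers of several other cells. The 7 dendritic cell markers summed to 73.0, 195 and 197 TPM in CD11chiMinclehi libraries 1, 2 and 3 and to 58.1, 288 and 170.5 TPM in CD11cloMinclelo libraries 1, 2 and 3. The 5 neutrophil markers summed to 54.7 to 271 TPM against 38.2 to 367 TPM and the 7 T and NK cell markers to 17.6 to 346 TPM against 17.0 to 516 TPM, so that these 3 sums overlapped between the groups while Ch25h did not. In library 1 of both groups Cd3g was at 0 TPM, and Cd3d was at 0 TPM in that of CD11chiMinclehi and Cd3e, Trac and Siglech in that of CD11cloMinclelo.

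Kupffer cell markers moved with the groups. By expression, the study aligned CD11cloMinclelo macrophages with monocyte-derived Kupffer cells and CD11chiMinclehi macrophages with hepatic lipid-associated macrophages. Its markers of monocyte-derived Kupffer cells included Clec4f, Cd5l and Cd207. Kupffer cell markers are therefore not read here as RNA of other cells. The 9 markers summed to 954 to 1472 TPM in CD11chiMinclehi and 2046 to 3049 TPM in CD11cloMinclelo libraries. None was called by limma without the block (6 had an unadjusted p under 0.05). With it 6 were called lower, against 1.75% of all genes, among them Clec4f, Vsig4 and Folr2. Timd4, the gene of the excluded protein Tim4, was at 0 TPM in CD11chiMinclehi libraries 1 and 3 and at most 3.77 TPM elsewhere. The 7 measured stellate cell and fibroblast markers summed to 105 to 139 TPM against 158 to 237 TPM, with Dcn called lower by limma (log2 difference -0.65 ± 0.09, adjusted p = 0.0253). Dcn alone, at 71.7 to 82.7 against 112 to 128 TPM, made up most of each sum. Col3a1 was also lower without overlap. Lrat, Col1a1, Col1a2, Pdgfrb and Des overlapped between the groups, and Pdgfrb went the other way (log2 difference 0.64 ± 0.37). The part of stellate cells, fibroblasts or cells with Kupffer cell markers in the difference of Ch25h was not tested. In sorted populations fewer cells with a transcript and less transcript per cell cannot be told apart.

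**Figure D3:**
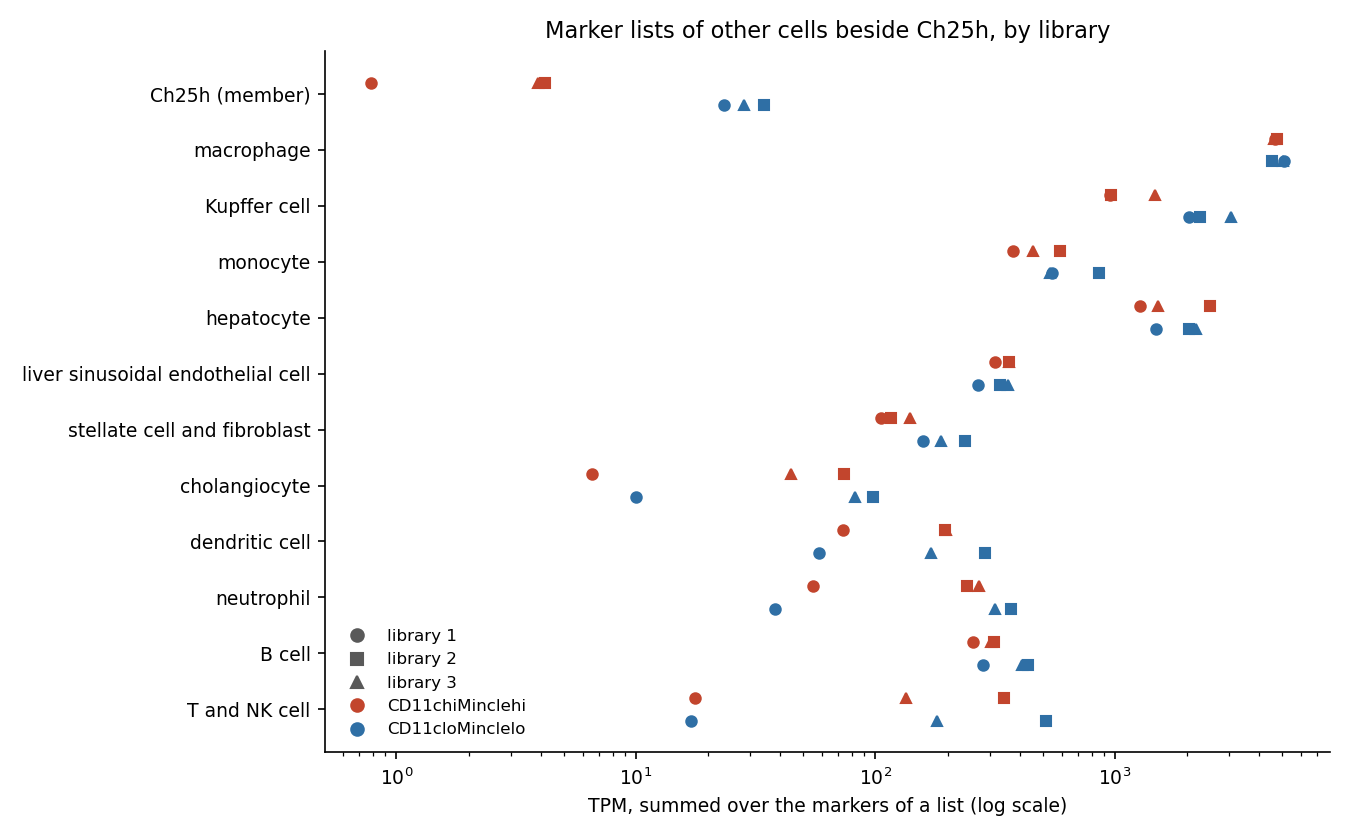
TPM of Ch25h and summed TPM of the marker lists of liver cells in each library (log scale), CD11chiMinclehi in red and CD11cloMinclelo in blue, with the symbol shape giving the library number. Sums of Kupffer cell markers (954 to 1472 against 2046 to 3049 TPM) and of stellate cell markers, the latter mostly Dcn, did not overlap between the groups. Sums of dendritic cell, neutrophil and T and NK cell markers were lowest in library 1 of each group.

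By the root mean square distance between centred log2(TPM + 1) profiles over the 6 libraries, the genes most like Ch25h among 12073 others with a mean of 5 TPM or more were Ccl12 (distance 0.35), Dlx2 (0.47), Col14a1 (0.48), Ifi44 (0.52) and Gm13431 (0.58). Ccl12, a monocyte chemokine gene, was at 7.08, 14.0 and 20.1 TPM in CD11chiMinclehi libraries and 60.4, 107 and 69.5 TPM in CD11cloMinclelo libraries. Col14a1, the gene of collagen type XIV, was at 5.88, 6.70 and 13.1 TPM against 60.5, 55.0 and 68.1 TPM. Ifi44, an interferon-stimulated gene, was at 1.12, 9.51 and 9.65 TPM against 20.1, 34.9 and 52.1 TPM, with its lowest library in each group the same as for Ch25h. None of the 5 overlapped between the groups, as for 18.5% of all genes. They were picked by likeness to Ch25h over these same libraries, so their separation follows from the selection and is no result about them. The same holds for the shared lowest library of Ifi44.

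Cyp27a1 encodes the mitochondrial sterol 27-hydroxylase, which makes 27-hydroxycholesterol, an LXR ligand, and starts the acidic route of bile acid synthesis in liver. It lies on chromosome 1 (74713574 to 74737892, plus strand). Cyp27a1 was at 217, 235 and 232 TPM in CD11chiMinclehi libraries and at 277, 259 and 258 TPM in CD11cloMinclelo libraries. The groups did not overlap, but the means of 228 ± 9.36 and 265 ± 10.9 TPM (SD, n = 3 each) differed by only 1.16-fold (log2 difference -0.21 ± 0.06). Each library held far more Cyp27a1 than Ch25h transcript, 56.4 to 278 times more in CD11chiMinclehi and 7.54 to 11.8 times more in CD11cloMinclelo libraries.

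Cyp7b1 encodes oxysterol 7α-hydroxylase, which acts on 25- and 27-hydroxycholesterol. It lies on chromosome 3 (18071950 to 18243338, minus strand) and was among the lowest genes measured, at rank 14621 by mean level. Its levels were 1.00, 3.20 and 4.49 TPM in CD11chiMinclehi and 1.36, 0.710 and 0.273 TPM in CD11cloMinclelo libraries, which overlapped through library 1. The log2 difference was 1.05 ± 0.56 and rested on about 4, 12 and 18 reads against 5, 3 and 1. Counting error alone gives 1.74 to 8.78 for the 3.70-fold ratio of CD11chiMinclehi to CD11cloMinclelo, and the ratio within library number 1 was 0.736 (0.146 to 3.42). At this depth a difference in Cyp7b1 could not be separated from the spread between libraries.

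Of 17 further genes of oxysterol metabolism and bile acid side-chain shortening, 15 were measured and 0 were called in either direction with limma, also with the block (0 had an unadjusted p under 0.05, and 1 with the block), with a median log2 difference of -0.12 beside -0.01 over all genes. All 15 overlapped between the groups. Several, such as Cyp7a1, the rate-limiting enzyme of bile acid synthesis, and Cyp8b1, are hepatocyte genes, as Cyp27a1, Cyp7b1 and Apoe also are in part. The 10 hepatocyte markers summed to 1278, 2490 and 1511 TPM in CD11chiMinclehi libraries 1, 2 and 3 and to 1486, 2038 and 2183 TPM in CD11cloMinclelo libraries. None was called by limma (1 had an unadjusted p under 0.05), and their part in these levels was not tested.

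Nr1h2, which encodes LXRβ, lies on chromosome 7 (44549616 to 44553951, minus strand) and was at nearly one level in all libraries. It was at 226, 242 and 211 TPM in CD11chiMinclehi and 226, 223 and 213 TPM in CD11cloMinclelo libraries (means 226 ± 15.9 and 220.5 ± 6.60 TPM), with a log2 difference of 0.04 ± 0.06. Nr1h3, which encodes LXRα, was at 371, 372 and 363 TPM against 327, 340.1 and 375 TPM (log2 difference 0.09 ± 0.06, adjusted p = 0.595). Nr1h3 thus exceeded Nr1h2 in every library, by 1.45 to 1.76 times. Of 17 measured genes for LXRα, RXRs and coregulators, 0 were called with limma, with or without the block (2 had an unadjusted p under 0.05 in each), and their log2 differences ran from -0.23 to 0.14 with a median of 0.04.

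Mylip encodes the ubiquitin ligase IDOL, an LXR target that sends lipoprotein receptors to degradation. It lies on chromosome 13 (45389742 to 45412022, plus strand). Mylip was at 146, 97.9 and 133 TPM in CD11chiMinclehi and 166, 143 and 149 TPM in CD11cloMinclelo libraries. It was lower in CD11chiMinclehi within all 3 library numbers, although library 1 of CD11chiMinclehi lay above library 2 of CD11cloMinclelo. The means were 126 ± 24.9 and 153 ± 12.1 TPM (SD, n = 3 each), and the log2 difference of -0.30 ± 0.14 was the lowest among the 6 members above 100 TPM. It rested partly on library 2 of CD11chiMinclehi, without which it was -0.13, closer to 0 than that of Cyp27a1 (-0.23).

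Of the 7 measured substrates of IDOL and receptors of apolipoprotein E, 1 was called, as higher, against 0.77% of all genes. With the block 2 were called higher, against 1.67% of all genes. Their median log2 difference was 0.06. Sdc1, which encodes syndecan-1, a heparan sulfate proteoglycan that can take up apolipoprotein E-rich lipoproteins, rose in CD11chiMinclehi macrophages, at 207, 233 and 167 TPM against 23.0, 72.6 and 49.5 TPM (log2 difference 2.17 ± 0.36, adjusted p = 0.0381).

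Lpcat3 encodes the lysophospholipid acyltransferase that places polyunsaturated fatty acids into membrane phospholipids. It lies on chromosome 6 (124663027 to 124704418, plus strand). Lpcat3 was at 239.6, 208 and 216 TPM in CD11chiMinclehi and 204, 179 and 191 TPM in CD11cloMinclelo libraries. The groups were separated narrowly, by the gap between 208 and 204 TPM, with means of 221 ± 16.6 and 192 ± 12.4 TPM (SD, n = 3 each) and a log2 difference of 0.21 ± 0.08. It shares 334 of its 3268 exon bases with Emg1 on the opposite strand, which was at 218 to 248 TPM against 207 to 244 TPM.

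None of the 12 other measured lysophospholipid acyltransferase genes was called with limma in the main model, where 5 had an unadjusted p under 0.05, and their median log2 difference was 0.04. With the block, 1 was called in each direction, against 1.67% of all genes as higher and 1.75% as lower. Agpat4 was at 198, 189 and 158 TPM against 117, 134 and 105 TPM (log2 difference 0.61 ± 0.12, adjusted p = 0.0558, and 0.011 with the block). Lpcat4 was at 56.5, 88.0 and 79.3 TPM against 118, 137 and 137 TPM (log2 difference -0.82 ± 0.16, adjusted p = 0.0611, and 0.0112 with the block). Both separated the groups more widely than Lpcat3 did.

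Pltp encodes the phospholipid transfer protein of plasma lipoproteins. It lies on chromosome 2 (164839518 to 164857711, minus strand). Pltp was at 293, 269 and 296 TPM in CD11chiMinclehi and 287, 254 and 335 TPM in CD11cloMinclelo libraries. Library 2 was the lowest in both groups, and the log2 difference was -0.02 ± 0.10 with means of 286 ± 14.7 and 292 ± 40.7 TPM (SD, n = 3 each). It shares 495 of its 2562 exon bases with Ctsa on the opposite strand, which was at 363 to 378 TPM against 348 to 385 TPM.

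Apoe encodes apolipoprotein E, a carrier of cholesterol that macrophages secrete. It lies on chromosome 7 (19696109 to 19699188, minus strand) and was the most abundant member, 14th of all genes by mean level. Apoe was at 696, 727 and 697 TPM in CD11chiMinclehi and 785, 691 and 790.2 TPM in CD11cloMinclelo libraries. The groups overlapped because library 2 of CD11cloMinclelo was the lowest of all 6, with means of 707 ± 17.4 and 756 ± 55.8 TPM (SD, n = 3 each) and a log2 difference of -0.09 ± 0.05. The highest TPM of any gene was 1184 to 1382 per library, of which Apoe reached 53.6% to 58.8%. Whether the removal of duplicate reads by the authors narrowed differences among such abundant genes was not tested.

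The 6 members above 100 TPM had log2 differences from -0.30 to 0.21. Among the 3290 genes with a mean of 100 to 800 TPM, the 10th and 90th percentiles of the log2 difference were -0.20 and 0.20. Cyp27a1, Mylip and Lpcat3 lay just outside this range, and Nr1h2, Pltp and Apoe within it. This range was computed with all 6 libraries only. Set against it, these 3 came within it without some single libraries. Mylip was at -0.13 without CD11chiMinclehi library 2, Cyp27a1 at -0.18 without library 1 of either group, and Lpcat3 at 0.15 and 0.16 without CD11chiMinclehi library 1 and CD11cloMinclelo library 2. Other fits moved them further out, Mylip to -0.41 without CD11chiMinclehi library 1, Cyp27a1 to -0.23 without CD11chiMinclehi library 2, and Lpcat3 to 0.25 without CD11cloMinclelo library 1.

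Of 20 other measured LXR target genes, 0 were called with limma in the main model (6 had an unadjusted p under 0.05), with a median log2 difference of -0.05. The cholesterol exporter genes Abca1 (log2 difference -0.17 ± 0.12, adjusted p = 0.65) and Abcg1 (0.09 ± 0.08, adjusted p = 0.727) and the lipogenic regulator gene Srebf1 (0.06 ± 0.06, adjusted p = 0.759) were at 118 to 155, 151 to 163 and 158 to 168 TPM in CD11chiMinclehi libraries and at 135 to 173, 135 to 157 and 148 to 163 TPM in CD11cloMinclelo libraries. With the block, 1 gene was called in each direction, against 1.67% of all genes as higher and 1.75% as lower. Lpl, which encodes lipoprotein lipase, was at 529, 511 and 533 TPM against 479, 400.4 and 428 TPM (log2 difference 0.27 ± 0.07, adjusted p = 0.115, and 0.0367 with the block). Cd5l, which encodes a secreted scavenger receptor protein and is also a Kupffer cell marker, was at 176, 178 and 307 TPM against 434, 459.6 and 615 TPM (log2 difference -1.22 ± 0.22, adjusted p = 0.0502, and 0.00164 with the block).

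Of the 9 measured genes of HDL, phospholipid transfer and cholesterol ester hydrolysis, 0 were called with limma in the main model (3 had an unadjusted p under 0.05). With the block 2 were called higher, against 1.67% of all genes. These were the lysosomal acid lipase gene Lipa (log2 difference 0.23 ± 0.05, adjusted p = 0.0789, and 0.0358 with the block) and the cholesterol ester hydrolase gene Nceh1 (0.35 ± 0.12, adjusted p = 0.267, and 0.0302 with the block). The median of these 9 genes was -0.09.

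Oxysterols are also sensed and carried outside LXR. Of 20 measured genes of this kind 2 were called higher and 0 lower, against 0.77% and 0.454% of all genes, with a median log2 difference of 0.05. Soat1, which encodes the enzyme that esterifies cholesterol for storage, was at 199, 199.8 and 208 TPM in CD11chiMinclehi and 159, 161 and 159 TPM in CD11cloMinclelo libraries (log2 difference 0.34 ± 0.05, adjusted p = 0.0308). Osbpl8, which encodes a lipid transfer protein of the oxysterol-binding family at membrane contact sites, was at 92.8, 81.3 and 92.1 TPM against 62.4, 55.4 and 61.0 TPM (log2 difference 0.57 ± 0.10, adjusted p = 0.0437). Both rose in each CD11chiMinclehi library beyond every CD11cloMinclelo library. Osbpl3, of the same family, was called higher only with the block (log2 difference 0.93 ± 0.32, adjusted p = 0.27, and 0.0198 with the block). Gpr183, the gene of the receptor for the 7α-hydroxylated product of 25-hydroxycholesterol, was at 146, 119.6 and 139 TPM against 166, 132 and 130.2 TPM, with a log2 difference of -0.08 ± 0.12 (adjusted p = 0.865).

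Genes of cholesterol synthesis and uptake that SREBP2 drives were not called with limma in the main model, 0 of 23 (14 had an unadjusted p under 0.05), but 22 of the 23 had a log2 difference above 0, with a median of 0.34 beside -0.01 over all genes. For 13 of them every CD11chiMinclehi library lay above every CD11cloMinclelo library, as for 9.25% of all genes. With the block 4 were called higher, against 1.67% of all genes, among them Sqle, Mvd and Hmgcs1, the last of which was named after its values were seen. Sqle, which encodes squalene epoxidase, was at 141, 168 and 154 TPM against 111, 117 and 103 TPM (log2 difference 0.48 ± 0.09, adjusted p = 0.05, and 0.0219 with the block). Mvd, which encodes mevalonate diphosphate decarboxylase, was at 119, 146 and 116 TPM against 67.5, 109 and 67.4 TPM (log2 difference 0.67 ± 0.19, adjusted p = 0.188, and 0.0188 with the block). Hmgcs1, which encodes the cytosolic HMG-CoA synthase, was at 122, 109 and 109 TPM against 92.8, 86.4 and 74.1 TPM (log2 difference 0.43 ± 0.10, adjusted p = 0.116, and 0.0431 with the block).

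Interferon-stimulated genes, a class to which Ch25h belongs, were called lower in CD11chiMinclehi macrophages for 3 of 18 measured, against 0.454% of all genes, and higher for 0, with a median log2 difference of -0.52. With the block 12 of 18 were called lower, against 1.75% of all genes. All 18 differences were below 0, and for 16 of the genes every CD11chiMinclehi library lay below every CD11cloMinclelo library, as for 9.22% of all genes. Irf7, a transcription factor of the interferon response, was at 229.8, 222 and 251 TPM against 355, 328 and 375 TPM (log2 difference -0.59 ± 0.07, adjusted p = 0.017). Cxcl10, a chemokine gene, was at 206, 214 and 244 TPM against 289.9, 295 and 315 TPM (log2 difference -0.44 ± 0.07, adjusted p = 0.0386). Usp18, a brake on interferon signalling that was named after its values were seen, was at 105, 95.8 and 123 TPM against 178, 163 and 163 TPM (log2 difference -0.64 ± 0.10, adjusted p = 0.0308). Isg15, a ubiquitin-like modifier, was called only with the block (log2 difference -0.42 ± 0.10, adjusted p = 0.107, and 0.0334 with the block). The difference of Ch25h was larger than that of any of the 18, of which Ifi44 was the lowest at -2.47 ± 0.65.

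Calls of these pathway genes changed when 1 library was left out. Of the 6 called in the main model, Soat1 and Osbpl8 were called in 0 of the 6 limma fits that each left out 1 library (adjusted p = 0.0812 to 0.137 and 0.0825 to 0.185). Sdc1 was called only without CD11cloMinclelo library 1 (adjusted p = 0.0456, otherwise up to 0.158), Cxcl10 and Usp18 only without CD11chiMinclehi library 3 (adjusted p = 0.037 and 0.0316, otherwise up to 0.156 and 0.139), and Irf7 only without CD11chiMinclehi library 3 or CD11cloMinclelo library 2 (adjusted p = 0.0295 and 0.0361, otherwise up to 0.09). The log2 differences kept their sign in each of these fits. Over all genes these fits called 4 to 40 genes higher and 2 to 52 lower, against 127 and 75 in the main model. They also held fewer libraries, and the cause of the lost calls was not tested.

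**Figure D4:**
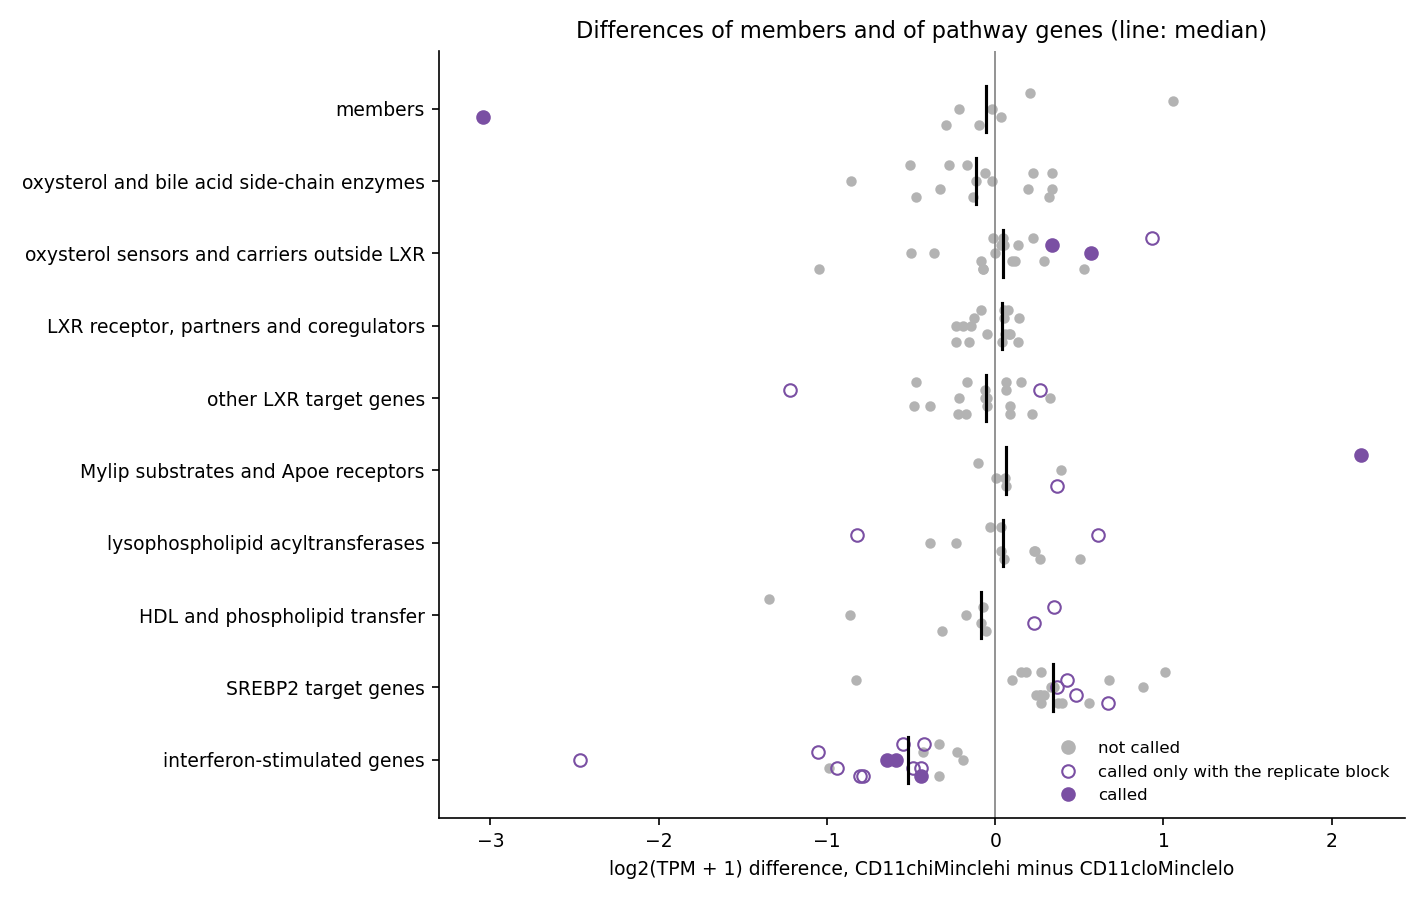
Differences on the log2(TPM + 1) scale, CD11chiMinclehi minus CD11cloMinclelo, of the 8 members and of the genes of 9 pathway lists, one point per gene, with black lines at the medians. Filled purple points were called by limma, open purple points only with the replicate block. Ch25h lay at -3.04, the medians of the SREBP2 target genes and the interferon-stimulated genes at 0.34 and -0.52, and the other lists had medians between -0.12 and 0.06.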

How the data were processed

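RNA-seq was performed on 6 libraries of sorted liver macrophages, grouped by their titles into CD11chiMinclehi and CD11cloMinclelo (n = 3 each). Per the labels and methods of the study, the authors made strand-specific libraries from poly(A) RNA, sequenced both ends, used Trimmomatic 0.39.0 for trimming, HISAT2 2.2.1 for alignment to GRCm38 (mm10), Picard to remove duplicates and featureCounts 2.0.1 for counting. From these counts the authors computed the deposited TPM, and their table held no gene with a mean under 1.00 TPM. Removing duplicates can flatten the levels of abundant genes.

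TPM keeps no depth, so reads were estimated from the step between low values with GENCODE M21 exon lengths, available for 97.6% of genes. Low values lay within 0.05 of whole steps in 78.0% to 84.8% of cases, against 10% by chance. Intervals from these reads are exact (Poisson for reads, Clopper-Pearson for ratios) and cover counting error only.

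For testing, log2(TPM + 1) was fitted by limma 3.58.1 under R 4.3.3 (empirical Bayes with a mean-variance trend, two-sided, Benjamini-Hochberg over all genes, adjusted p under 0.05) after tests on simulated data. Deviations from group means correlated at 0.36, 0.20 and 0.12 between libraries numbered 1, 2 and 3, and at -0.24 to 0.06 between unlike numbers. The numbers were therefore taken to pair libraries, although the margin for number 3 was small. Results with the number as a block are given where a call changes. P-values set the difference between the groups against the spread between these libraries, moderated over all genes. The main model had no block, and all standard errors given are from it. Alternatives were the block, pseudocounts of 0.1 and 5, a minimum mean of 5 TPM, median-ratio scaling, no trend and leaving out libraries.

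Members, pathway lists and marker lists were chosen with earlier results of these data known. Named were the members, of each list up to 3 genes with the highest mean among those called in either model, Gpr183, Nr1h3, Abca1, Abcg1 and Srebf1, the listed markers, and the 5 genes with profiles nearest to Ch25h. A further gene of this rule is not reported here. Promoter windows are from RefSeq, and coordinates from GENCODE M21.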

Additional observations from a re-analysis of the deposited data

How the results depend on the processing

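Main counts were 127 genes called higher and 75 lower, and among the 138 measured pathway genes 3 and 3. With the replicate block, which uses the pairing of library numbers, they were 275 and 289, with 12 and 14 pathway genes. Without the mean-variance trend they fell to 8 and 11, with 0 and 0 pathway genes, and with a minimum mean of 5 TPM 5 pathway genes were called in each direction. When 1 library was left out, 4 to 40 genes were called higher and 2 to 52 lower, with 0 to 1 and 0 to 7 pathway genes. In an alternative chosen after seeing the data, leaving out both libraries of 1 number, 0 genes were called higher without any of the 3 numbers, and 0 to 4 lower, with 0 and 0 to 1 pathway genes. There 672 to 908 genes were higher at an unadjusted limma p under 0.05. These fits also held fewer libraries, and the cause of the fewer calls was not tested. Leave-out fits dropped genes with no residual variance.

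The log2 difference of Ch25h moved from -3.04 to -2.10 with a pseudocount of 5, and that of Cyp7b1 from 1.05 to 1.75 and 0.43 with pseudocounts of 0.1 and 5, by construction of the scale. Leaving out 1 library or both of 1 number gave -3.31 to -2.54 for Ch25h, 0.53 to 1.70 for Cyp7b1, -0.25 to -0.14 for Cyp27a1, -0.41 to -0.13 for Mylip, 0.15 to 0.25 for Lpcat3 and -0.177 to -0.0504 for Apoe. Cyp7b1 had no value under the minimum mean of 5 TPM. The differences of Nr1h2 and Pltp changed sign when single libraries were left out, as both lay near 0. Depth limits Ch25h and Cyp7b1, which had 22 and 9 reads in their lower group.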

Other observations

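The ratio of Nr1h3 to Nr1h2 was 1.64, 1.54 and 1.73 in CD11chiMinclehi libraries 1, 2 and 3 and 1.45, 1.53 and 1.76 in CD11cloMinclelo libraries. Some of the named genes stand in gene lists that the study used to score macrophages. Mylip is on its list for monocyte-derived Kupffer cells, Pltp on that list and on one for Kupffer cells, and Apoe on the lists for scar-associated macrophages and for Kupffer cells.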
